A study of Mus musculus with 16 samples.

Results

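Abo, A4gnt, Fut1, Fut2, Fut4, Fut8 and B4galnt2, 7 genes of enzymes that place fucose, blood group sugars or other end sugars on glycans, were followed through sorted mouse intestinal epithelium. They were found by symbol among the 46882 genes of the deposited count tables, and all 7 were present and passed the filter on low counts. The 16 libraries came from RedMUC298trTg mice aged 6 to 8 weeks, a line whose mCherry signal separates goblet cells from the remaining epithelium, with a C57Bl6 mouse as the negative control of the sort. There were 4 libraries of mCherry-negative cells of the distal colon (DC.EC, labelled colonocytes), 4 of mCherry-positive distal colon cells (DC.GC), and 4 of each sort from section 8 of the small intestine (Si8.EC, labelled enterocytes, and Si8.GC). All 4 groups carried the transgene and none received a treatment named in the labels, which state neither the promoter of the reporter nor which libraries came from separate animals. Spread here is that between libraries, possibly technical, and the p-values measure no more than that.

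Glycans of mucins and of epithelial surface proteins grow from a core and end in sugars that bacteria and lectins recognise. FUT1 and FUT2 add fucose to a terminal galactose and so make the H antigen, on which the ABO transferase can build the A or B blood group sugar; in the gut FUT2 is the secretor enzyme of the epithelium. FUT4 adds fucose to an inner N-acetylglucosamine and makes Lewis x type structures, and FUT8 puts the core fucose on N-glycans. A4GNT caps O-glycans with an alpha-linked N-acetylglucosamine, known best from the gland mucins of the stomach. B4GALNT2 adds N-acetylgalactosamine beside a sialic acid and makes the Sda antigen of the intestine.

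Goblet cell markers summed to between 38562 and 43630 CPM, counts scaled to the size of the library, in the DC.GC libraries and to between 446 and 588 in DC.EC, and in Si8 to between 125831 and 286860 in Si8.GC and between 311 and 790 in Si8.EC. All 8 goblet markers were detected in each group. In Si8 the sum of the 7 Paneth cell markers rose from 742 to 1992 CPM in Si8.EC to 13169.7 to 35764 CPM in Si8.GC. The part of these markers in the Si8 goblet results was not tested. In DC the same sum was 0.526 to 1.13 CPM in DC.EC and 21.8 to 25.2 CPM in DC.GC, and the defensins Defa24, Defa17 and Defa22 were at 0. The 3 deep crypt secretory markers summed to between 1395 and 2079 CPM in DC.GC and between 18.6 and 35.7 in DC.EC, and to between 141 and 229 CPM in Si8.GC against 22.9 to 29.9 in Si8.EC, and their part in the results was not tested. Markers of the labelled types were higher in the other sorts but not absent from the goblet sorts. Colonocyte genes summed to between 6318 and 7034 CPM in DC.EC and between 184 and 273 in DC.GC. Enterocyte genes summed to between 7879 and 15444 CPM in Si8.EC and between 1020 and 1692 in Si8.GC. The other sorts also held more of the markers of some other cell types, but not of all. The 5 enteroendocrine markers summed to between 354 and 459 CPM in DC.EC against 48.8 to 70.9 in DC.GC, and to between 206 and 298 in Si8.EC against 53.2 to 99.6 in Si8.GC. The 5 intraepithelial lymphocyte markers summed to between 169 and 279 CPM in Si8.EC against 7.08 to 14.6 in Si8.GC, and were under 1 CPM in DC. Stromal markers were at most 21.8 CPM in any library and higher in both other sorts. The 5 stem cell markers overlapped between the sorts of each region. They summed to between 687 and 778 CPM in Si8.EC and between 697 and 1175 in Si8.GC. In DC they summed to between 89.8 and 127 CPM in DC.EC and between 81.1 and 94.2 in DC.GC. The 5 tuft cell markers also overlapped between the sorts in both regions. The part of these cells in the results was not tested. Total counts ran from 11.9 to 18.5 M per library in DC and from 30.8 to 41.1 M in Si8. Mitochondrially encoded genes had no counts in DC and took 3.19% to 8.36% of counts in Si8, so region and deposited table cannot be told apart. Nor can cell type and RNA column, since goblet lysates went through a MinElute column and the others through a Mini column.

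In the distal colon 6 of the 7 enzymes were higher in the goblet sort and B4galnt2 was lower. Across all 16001 genes tested, 27.8% were called higher and 27.9% lower in that comparison by edgeR's quasi-likelihood test at a Benjamini-Hochberg adjusted p under 0.05. The median change of the 7 was 1.94 on the log2 scale, against 0.03 over all genes. In Si8, Fut1, Fut4, Fut8 and A4gnt were higher in the goblet sort, Fut2 and B4galnt2 were not called, and Abo had next to no counts to compare. The background there was 33.1% higher and 31.8% lower, and the median over the 6 enzymes with a value was 1.58, against 0.03 over all genes. In bulk samples, fewer cells of a type and less RNA per cell cannot be told apart.

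**Figure D1:**
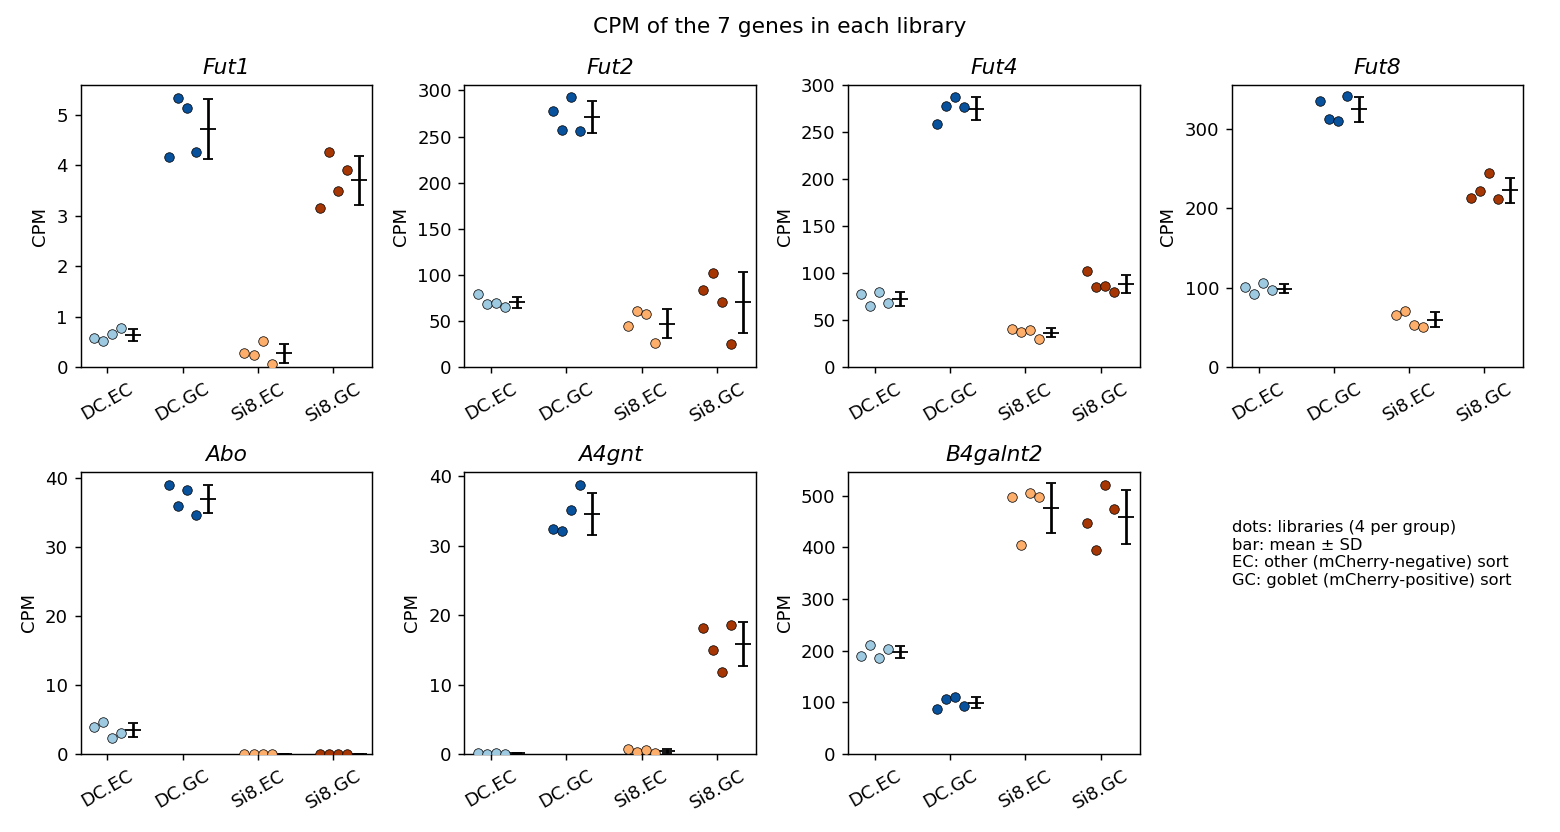
CPM of each of the 7 enzymes in each library (points), with the mean ± SD of the 4 libraries of a group as a bar beside them, on an axis of its own for every gene. A4gnt and Fut1 are high in both goblet groups, Abo only in the distal colon groups, and B4galnt2 is highest in the Si8 groups.

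The RefSeq promoter table (build GRCm38.p6) held 5 of the 7 enzymes, each as 250 bases before the RefSeq start of transcription and 50 from it. All positions in this paragraph are relative to that start. In the GENCODE annotation, used below for gene coordinates, Fut1 and Fut4 start farther upstream, and their windows lie wholly inside the genes. Fut8 has several starts there and is not printed. Shown are the windows of 3 genes that were higher in both goblet sorts (Fut1, Fut4 and A4gnt) and of B4galnt2, which was higher in neither. They lie at chr7:45617356-45617655 on the plus strand (Fut1), chr9:14752073-14752372 on the minus strand (Fut4), chr9:99612252-99612551 on the plus strand (A4gnt) and chr11:95914822-95915121 on the minus strand (B4galnt2). All are written 5′ to 3′ along the gene, and capitals mark matches to the motifs searched.
Fut1: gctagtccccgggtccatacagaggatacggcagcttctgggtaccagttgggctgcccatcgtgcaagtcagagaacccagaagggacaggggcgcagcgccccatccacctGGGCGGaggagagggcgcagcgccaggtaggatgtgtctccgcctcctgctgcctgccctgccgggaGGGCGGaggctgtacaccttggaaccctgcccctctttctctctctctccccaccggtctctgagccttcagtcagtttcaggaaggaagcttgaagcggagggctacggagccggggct
Fut4: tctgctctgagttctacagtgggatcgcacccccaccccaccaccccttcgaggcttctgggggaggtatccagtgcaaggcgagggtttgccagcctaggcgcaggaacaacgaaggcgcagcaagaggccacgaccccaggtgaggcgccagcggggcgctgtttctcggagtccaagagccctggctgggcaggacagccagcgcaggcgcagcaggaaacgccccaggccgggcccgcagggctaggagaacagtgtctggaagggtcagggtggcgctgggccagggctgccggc
A4gnt: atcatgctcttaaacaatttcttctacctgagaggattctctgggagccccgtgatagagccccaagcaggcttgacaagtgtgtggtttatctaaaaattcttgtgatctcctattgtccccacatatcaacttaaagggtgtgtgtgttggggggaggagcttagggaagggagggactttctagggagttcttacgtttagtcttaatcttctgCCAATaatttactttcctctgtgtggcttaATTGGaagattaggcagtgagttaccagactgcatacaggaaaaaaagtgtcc
B4galnt2: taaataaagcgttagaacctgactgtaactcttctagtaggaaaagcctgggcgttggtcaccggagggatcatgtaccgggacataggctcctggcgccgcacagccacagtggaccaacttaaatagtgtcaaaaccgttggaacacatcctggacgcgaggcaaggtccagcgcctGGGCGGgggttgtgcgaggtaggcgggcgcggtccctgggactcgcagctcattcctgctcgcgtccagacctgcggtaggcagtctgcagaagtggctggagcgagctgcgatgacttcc
The 10 motifs, searched on both strands, were the E-boxes CAGCTG and CAGATG, the ETS core CCGGAT of the SPDEF type, CDX (TTTATG), HNF1 (GTTAAT), HNF4 (CAAAGT), STAT (TTCNNNGAA), the TATA box TATAAA, the GC box GGGCGG and the CCAAT box CCAAT. Over all 32851 windows of the table they were present in 16.3%, 17.2%, 6.04%, 11.9%, 7.10%, 14.4%, 8.30%, 13.6%, 35.7% and 37.4%, in that order. The Fut1 window held GC boxes 137 and 70 bases before the start, and the B4galnt2 window held 1 at 71 bases before it. The A4gnt window held a CCAAT box 33 bases before the start and another, on the opposite strand, 3 bases before it. The Fut4 window held none of these 10 words. A4gnt stood apart in base composition, with 43.7% G and C and 2 CpG pairs, against 64.7% and 15 in Fut1, 68% and 18 in Fut4, and 59% and 21 in B4galnt2, where the median of all windows was 52.7% G and C. A match is only a description of these letters.

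Of the pair that makes the H antigen, Fut1 was by far the less abundant, and it was higher in the goblet sort of both regions. It lies at chr7:45617289-45621059 on the plus strand (GRCm38, GENCODE M21, with 3 exon blocks). Its level was 0.578, 0.518, 0.654 and 0.785 CPM in DC.EC libraries S10, S12, S14 and S17, and 4.16, 5.32, 5.13 and 4.26 CPM in DC.GC libraries S9, S11, S13 and S18. In Si8 it was 0.278, 0.251, 0.520 and 0.0648 CPM in Si8.EC libraries S1, S3, S5 and S7, and 3.15, 4.25, 3.48 and 3.91 CPM in Si8.GC libraries S2, S4, S6 and S8. Every goblet library was above every library of the other sort, in both regions. The means were 4.72 ± 0.593 against 0.634 ± 0.115 CPM in DC and 3.70 ± 0.481 against 0.279 ± 0.187 CPM in Si8 (SD, n = 4 libraries each). edgeR gave a goblet change of 2.89 ± 0.28 (SE) on the log2 scale in DC, 7.42-fold, with an adjusted p of 2.93e-08. In Si8 the change was 3.72 ± 0.28, 13.1-fold, with an adjusted p of 7.9e-10. These rest on few reads, 43 in all of DC.EC and 36 in all of Si8.EC against 347 in DC.GC and 533 in Si8.GC.

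Fut2 behaved otherwise, with a clear goblet difference in the colon and none called in Si8. The gene lies at chr7:45648591-45666394 on the minus strand. It stood at 79.2, 68.4, 69.3 and 65.2 CPM in the DC.EC libraries (in the library order given for Fut1) and at 278, 257, 293 and 256 CPM in DC.GC. In Si8.EC it was 44.3, 60.4, 58.1 and 26.3 CPM, and in Si8.GC 83.9, 102, 70.3 and 24.9 CPM. The colon groups did not overlap. In Si8 the lowest goblet library, S8, was below all 4 libraries of the other sort, while the other 3 goblet libraries were above them. edgeR gave 1.94 ± 0.34 in DC, 3.84-fold, with an adjusted p of 0.000238. In Si8 the change was 0.57 ± 0.33, with a 95% interval from −0.14 to 1.29 and an adjusted p of 0.147. Without library S8 the Si8 change was 0.86 with an adjusted p of 0.00184, so this 1 library decides the call.

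The spread of Fut2 was itself uneven. Its coefficient of variation over 4 libraries was 8.58% in DC.EC and 6.48% in DC.GC, but 33.1% in Si8.EC and 47.0% in Si8.GC. Among the 10141 genes with at least 5 CPM in Si8.GC, 99.4% varied less, and among 10046 such genes in Si8.EC, 97.2% did. The medians over those genes were 9.87% and 11.1%. Fut4, Fut8 and B4galnt2 in the same 8 libraries had coefficients between 7.01% and 16.1%, below those of Fut2.

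**Figure D2:**
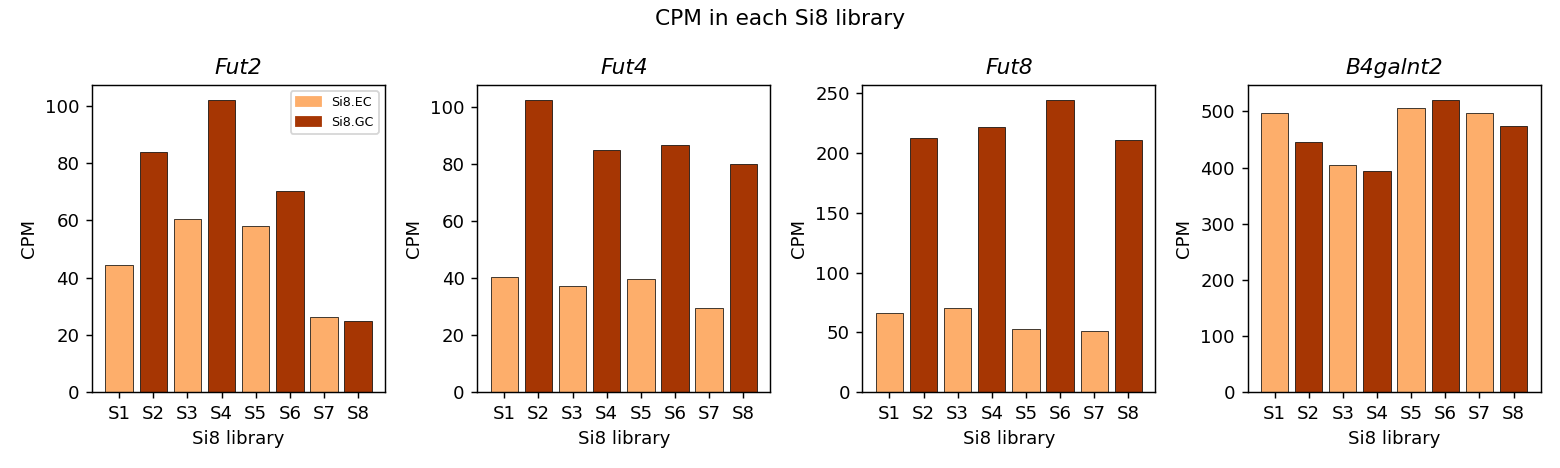
CPM of Fut2, Fut4, Fut8 and B4galnt2 in each of the 8 Si8 libraries, Si8.EC in light bars and Si8.GC in dark bars, each axis starting at 0. Fut2 is lowest in S7 (26.3 CPM) and S8 (24.9 CPM), while the 2 sorts are fully separated for Fut4 and Fut8 and interleaved for B4galnt2.

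Fut1, Fut2 and Sec1, another member of the same fucosyltransferase group, all lie on chromosome 7 and share sequence. The coding sequences of Fut1 and Fut2 were identical at 67.3% of aligned bases, with a longest shared run of 24 bases, so only reads inside such short runs are shared. Fut2 and Sec1 were identical at 84.1% and shared an unbroken run of 180 bases, which starts at coding position 372 of Fut2 and 444 of Sec1. It is shown because reads that fall inside it cannot be assigned to either gene by their letters, and lower case throughout means that every base is shared.
Fut1 and Fut2: tacctttgtgggtgtccatgtgcg
Fut2 and Sec1: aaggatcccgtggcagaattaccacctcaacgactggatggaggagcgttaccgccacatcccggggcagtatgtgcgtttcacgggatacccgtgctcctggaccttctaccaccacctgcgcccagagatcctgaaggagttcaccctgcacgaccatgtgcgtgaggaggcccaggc
Sec1 had 5 counts in all of DC.EC, 61 in DC.GC, 7 in Si8.EC and 8 in Si8.GC, against 4808, 19722, 6277 and 10224 for Fut2. Sec1 was called higher in the DC goblet sort, by 3.42 ± 0.70 with an adjusted p of 0.000356 in edgeR. It had at most 0.826 CPM as a group mean and passed the filter on low counts only through DC.GC. The call is thus given as a description only. How shared reads were counted is not given in the sources used here. Per kilobase of exon, Fut1 made up 1.74% ± 0.411 of the sum of Fut1 and Fut2 in DC.EC, 3.29% ± 0.438 in DC.GC, 1.05% ± 0.534 in Si8.EC and 11.6% ± 7.91 in Si8.GC (SD, n = 4). The 4 Si8.GC libraries differed most in this share, which was highest in S8. Fut2 was at 4.58 CPM per kilobase in S8, against 12.9 to 18.8 in the rest of that group. Izumo1, on the same strand, starts 751 bases past the end of Fut1 and had at most 0.518 CPM as a group mean. Its goblet libraries lay above those of the other sort in both regions. This rests on few counts, 37 in DC.GC against 13 in DC.EC and 24 in Si8.GC against 6 in Si8.EC.

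Abo, the transferase that acts on the H antigen, had all but 1 of its counts in the distal colon, and there it was higher in the goblet sort. It lies at chr2:26842503-26864979 on the minus strand, in 7 exon blocks. Its level was 3.89, 4.597, 2.32 and 3.08 CPM in DC.EC and 38.9, 35.8, 38.1 and 34.6 CPM in DC.GC. All DC.GC libraries were far above all DC.EC libraries, with means of 36.9 ± 1.99 and 3.47 ± 0.988 CPM. The goblet change was 3.41 ± 0.17 on the log2 scale, 10.6-fold, with an adjusted p of 2.83e-11 in edgeR. In Si8 the 4 goblet libraries held 0 counts of Abo and the 4 other libraries held 1 count, in S5. A count of 0 allows up to 3 counts, or 0.0209 CPM over the Si8.GC group. Against that floor Abo was at least 1770-fold higher in DC.GC than in Si8.GC. In the other sort the 235 counts of DC.EC against 1 in Si8.EC gave a ratio of 451 with a 95% counting interval from 80.1 to 17880.0, which covers counting error only. The edgeR adjusted p was 1.07e-14 between the goblet sorts and 3.65e-11 between the other sorts. Abo passed the filter on low counts only through its DC libraries, so these p-values add no support for the difference. No goblet change can be given for Abo in Si8, since both groups were at or under the floor. Abo is 60.8% identical to Gbgt1 and 62.2% to Ggta1 over the aligned coding bases, with shared runs of at most 20 bases.

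Fut4, the Lewis x type enzyme, was higher in both goblet sorts, and more so in the colon. It is a gene of 1 exon at chr9:14748320-14752393 on the minus strand. Levels were 78.2, 64.6, 80.04 and 68.0 CPM in DC.EC and 258, 278, 287 and 276 CPM in DC.GC. In Si8.EC they were 40.4, 37.1, 39.6 and 29.6 CPM, and in Si8.GC 102, 84.8, 86.7 and 79.9 CPM. No goblet library overlapped the other sort of its region. The change was 1.92 ± 0.10 in DC, 3.78-fold (adjusted p 6.16e-12 in edgeR), and 1.27 ± 0.10 in Si8, 2.41-fold (adjusted p 2.01e-09). The difference between the regions, 0.65 ± 0.14, passed the test with an adjusted p of 0.0014. Piwil4, which lies 7586 bases past the end of Fut4 on the same strand, was higher in the same sorts. It was at 19.5 ± 3.23 against 1.01 ± 0.190 CPM in DC and 7.71 ± 1.69 against 0.523 ± 0.0291 CPM in Si8. Of all genes, 27.8% were called higher in DC and 33.1% in Si8, and a link between Piwil4 and Fut4 was not tested. A closer gene, 1700012B09Rik, lies 4193 bases before the start of Fut4 and was not analysed here.

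Fut8, which makes core fucose on N-glycans, had the goblet change most alike in size between the regions. It spans chr12:77238125-77476338 on the plus strand in 15 exon blocks, and its start overlaps 9530018F02Rik, a gene on the opposite strand that was not analysed here. Its level was 101, 91.8, 106 and 97.2 CPM in DC.EC and 335, 312, 311 and 341 CPM in DC.GC. In Si8.EC it was 66.2, 70.3, 52.6 and 50.9 CPM, and in Si8.GC 212, 222, 245 and 211 CPM. The groups did not overlap in either region. The change was 1.71 ± 0.10 in DC (3.28-fold, adjusted p 1.42e-11) and 1.89 ± 0.10 in Si8 (3.71-fold, adjusted p 3.96e-12), both from edgeR. Their difference was −0.18 ± 0.13 with a 95% interval from −0.46 to 0.10 and an adjusted p of 0.338, which does not show that they were equal.

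A4gnt, the enzyme of the alpha-linked N-acetylglucosamine cap, had the largest goblet change of the 7 in both regions. The gene lies at chr9:99612502-99622367 on the plus strand in 3 exon blocks. It was at 0.158, 0, 0.119 and 0.0604 CPM in DC.EC, which is 6 counts in all, and at 32.4, 32.2, 35.1 and 38.7 CPM in DC.GC. In Si8.EC it was 0.731, 0.277, 0.585 and 0.194 CPM, and in Si8.GC 18.1, 15.0, 11.8 and 18.5 CPM. Goblet libraries stood above all others by more than an order of magnitude in each region. edgeR gave 8.54 ± 0.35 in DC, 371-fold, with an adjusted p of 1.71e-13. In Si8 it gave 5.18 ± 0.25, 36.2-fold, with an adjusted p of 2.25e-12. The difference of 3.36 ± 0.63 between the regions passed with an adjusted p of 0.000372. A4gnt was higher in DC.GC than in Si8.GC (1.12 ± 0.17, adjusted p 1.46e-05 in edgeR). It was lower in DC.EC than in Si8.EC (−2.23 ± 0.63, adjusted p 0.0044 in edgeR), on 6 against 56 counts. With only the libraries of DC.EC and Si8.EC in the fit, A4gnt did not pass the filter on low counts. The size of the DC change and of the difference between regions rests on the same 6 counts.

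The level left in the other sort, as a percentage of the goblet level, shows how strongly each enzyme follows the sort. In DC it was 0.243% for A4gnt, 9.41% for Abo, 13.4% for Fut1 and between 26.0% and 30.5% for Fut2, Fut4 and Fut8, where the summed goblet markers were at 1.16%. In Si8 it was 2.82% for A4gnt, 7.53% for Fut1, 27.0% for Fut8, 41.5% for Fut4 and 67.2% for Fut2, where the goblet markers were at 0.300%. The markers were thus lower in the other sort than every enzyme but A4gnt in DC, and lower than all 6 in Si8.

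B4galnt2, the Sda enzyme, went the other way. It lies at chr11:95865943-95914891 on the minus strand in 11 exon blocks, with the antisense gene Gm11534 inside its span. Gm11534 had at most 16 counts per group, and whether exons of the genes overlap was not checked. Where they do, reads of Gm11534 and B4galnt2 can be told apart only if strand was used in counting. The level of B4galnt2 was 189, 211, 186 and 203 CPM in DC.EC and 87.6, 106, 111 and 92.3 CPM in DC.GC. The goblet libraries were thus the lower ones and did not overlap the others. In Si8 it was 498, 405, 506 and 498 CPM in Si8.EC and 446, 394, 521 and 474 CPM in Si8.GC, with the sorts interleaved. The DC change was −0.99 ± 0.10, or 1.99-fold lower in the goblet sort, with an adjusted p of 7.13e-08 in edgeR. The Si8 change was −0.05 ± 0.10, with a 95% interval from −0.26 to 0.15 and an adjusted p of 0.644. The goblet effect differed between the regions by −0.94 ± 0.14 (adjusted p 3.54e-05).

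**Figure D3:**
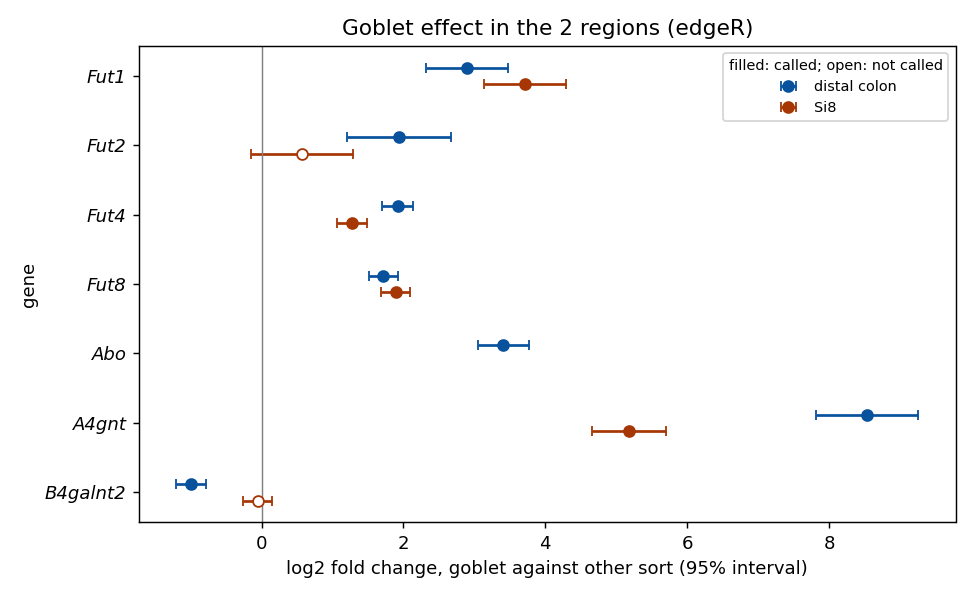
Log2 fold change of the goblet sort against the other sort for each enzyme in DC and Si8, with 95% intervals from edgeR; filled points passed an adjusted p under 0.05, and Abo has no Si8 point. A4gnt lies farthest to the right, Fut8 is nearly alike in both regions, and B4galnt2 in DC is the only point below 0 with an interval that excludes 0.

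Of the 6 enzymes with a value, the goblet change was larger in DC for Fut2, Fut4 and A4gnt and smaller for B4galnt2. Over all genes the difference between regions was called higher for 15.6% and lower for 16.5%. For Fut2 it was 1.37 ± 0.47 with an adjusted p of 0.0387 in edgeR. Leaving out any 1 of 11 of the 16 libraries raised the adjusted p above 0.05, to at most 0.0806. For Fut1 the difference was −0.82 ± 0.42, with a 95% interval from −1.71 to 0.06 and an adjusted p of 0.147. Without Si8.EC library S5, which had the most Fut1 in its group, it was −1.27 with an adjusted p of 0.023.

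Between goblet sorts, 5 of the 7 enzymes were higher in DC than in Si8, B4galnt2 was lower and Fut1 was not called, against 30.6% of all genes called higher and 31.5% lower. This comparison and the next use the same libraries as the goblet comparisons. Both count Abo as higher in DC, and it passed the filter on low counts only through DC. Beside Abo, Fut2 was 3.85-fold higher (1.95 ± 0.34, adjusted p 0.000194 in edgeR) and Fut4 3.11-fold higher (1.64 ± 0.10, adjusted p 4.09e-11). A4gnt was 2.18-fold and Fut8 1.46-fold higher (0.55 ± 0.09, adjusted p 5.63e-05). B4galnt2 was 4.62-fold lower in DC.GC than in Si8.GC, with an adjusted p of 5.72e-13. For Fut1 the difference was 0.36 ± 0.21, with a 95% interval from −0.08 to 0.79 and an adjusted p of 0.15. With library totals left unscaled it was 0.70 with an adjusted p of 0.00859, a setting that moved the median of all genes to 0.32.

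Between the other sorts, 4 of the 7 were higher in DC (Abo, Fut1, Fut4 and Fut8), against 33.3% of all genes. A4gnt and B4galnt2 were lower, against 33.6% of all genes, and Fut2 was not called. The A4gnt call rests on 6 counts in DC.EC against 56 in Si8.EC. With only these libraries in the fit A4gnt did not pass the filter on low counts. Fut4 was 1.98-fold higher and Fut8 1.65-fold higher in DC.EC, with adjusted p of 5.34e-08 and 1.72e-06 in edgeR. Fut1 was 2.27-fold higher with an adjusted p of 0.0084, although the libraries overlapped, as 0.518 CPM in S12 was just below 0.520 CPM in S5. B4galnt2 was 2.42-fold lower (adjusted p 1.08e-09). The Fut2 difference of 0.58 ± 0.33 had a 95% interval from −0.15 to 1.30 and an adjusted p of 0.145, though all DC.EC libraries were above all Si8.EC libraries. Without Si8.GC library S8, which is in neither group of this comparison but in the same fit, its adjusted p was 0.0137.

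Levels can be compared between genes only per length, here as CPM per kilobase of all exons of a gene joined. In DC.EC, B4galnt2 led at 115 ± 6.61, followed by Fut4 at 17.9 ± 1.86, Fut2 at 12.98 ± 1.11 and Fut8 at 12.5 ± 0.774. The libraries of Fut2 and Fut8 overlapped there. Abo (1.81 ± 0.514), Fut1 (0.228 ± 0.0414) and A4gnt (0.0306 ± 0.0250) came last. In DC.GC the order was Fut4 at 67.5 ± 2.97, B4galnt2 at 57.6 ± 6.36, Fut2 at 49.9 ± 3.24, Fut8 at 41.1 ± 1.96, Abo at 19.2 ± 1.04, A4gnt at 12.6 ± 1.11 and Fut1 at 1.69 ± 0.213. The libraries of Fut4 overlapped those of B4galnt2, and those of B4galnt2 overlapped those of Fut2; the later steps of the order did not overlap. With the longest transcript as the length, Fut2 (91.7) and Fut8 (91.4) stood above Fut4 and B4galnt2 in DC.GC, and in DC.EC Fut8 (27.9) and Fut2 (23.9) stood above Fut4 (17.9), so the order depends on the length chosen.

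In Si8.EC B4galnt2 stood at 277 ± 27.97 CPM per kilobase, far above Fut4 at 9.01 ± 1.21, Fut2 at 8.71 ± 2.88 and Fut8 at 7.59 ± 1.22, whose libraries overlapped. A4gnt was at 0.162 ± 0.0919 and Fut1 at 0.100 ± 0.0670, again with an overlap. In Si8.GC B4galnt2 was at 267 ± 30.8, Fut8 at 28.2 ± 1.97, Fut4 at 21.7 ± 2.39, Fut2 at 12.95 ± 6.08, A4gnt at 5.75 ± 1.15 and Fut1 at 1.33 ± 0.173. The libraries of Fut2 there overlapped those of A4gnt and no other enzyme. By longest transcript, Fut8 (16.9), followed by Fut2, stood above Fut4 (9.01) in Si8.EC, and Fut2 (23.8) above Fut4 (21.7) in Si8.GC. The Sda enzyme led in 3 of the 4 groups by either length.

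**Figure D4:**
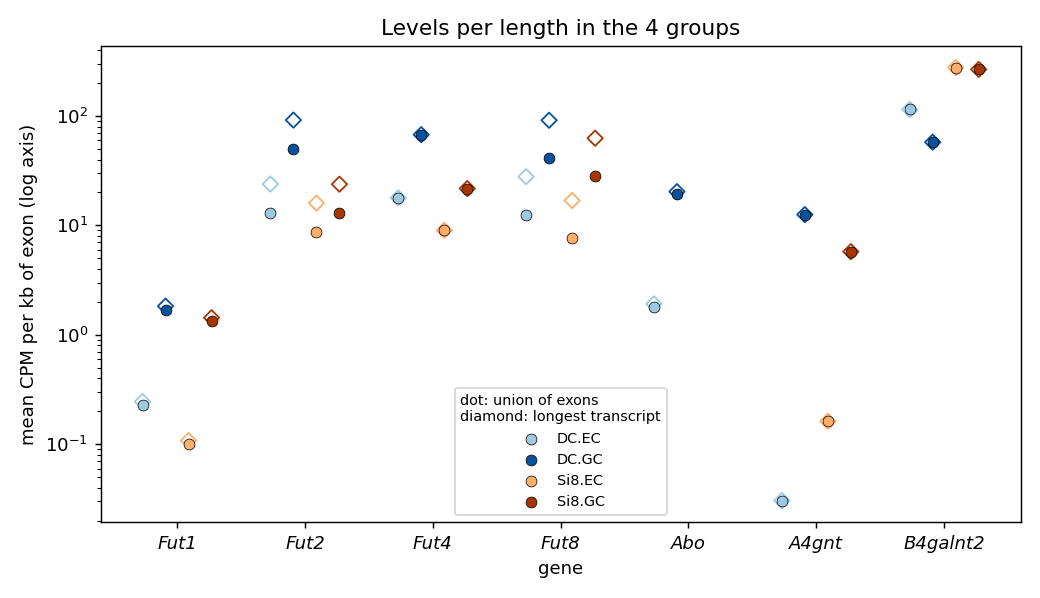
Mean CPM per kilobase for each enzyme in each group, on a log axis; dots use the joined exons as length, diamonds the longest transcript, and Abo in Si8, with at most 1 count, is not drawn. B4galnt2 is the top gene in DC.EC, Si8.EC and Si8.GC, and the diamonds of Fut2 and Fut8 in DC.GC lie above those of Fut4 and B4galnt2.

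The genes around these enzymes were counted from lists of the sugar donors, sister enzymes and regulators, 45 genes in the tables, of which 41 were tested; Fut7, Fut10, B3galt1 and B4galt2 had too few counts. In the DC goblet sort 18 of the 41 were higher, 12 lower and 11 not called, with a median of 0.19, where 27.8% of all genes were higher and 27.9% lower. In Si8, 13 were higher, 13 lower and 15 not called, with a median of −0.12, where 33.1% of all genes were higher and 31.8% lower. The medians over all genes were 0.03 in both. The shares lower in DC, and both shares in Si8, were near those of all genes, and the counts by list below are small and are read against the same shares.

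Supply of GDP-fucose, the donor of all fucosyltransferases, was higher in the DC goblet sort for all 6 genes tested (median 0.93), and in Si8 for 3 of 6 (median 0.33). Tsta3, which completes GDP-fucose synthesis, was 2.80-fold higher in DC at 155 ± 7.77 against 55.4 ± 2.48 CPM (adjusted p 6.47e-12 in edgeR) and 2.20-fold higher in Si8 (adjusted p 2.41e-10). Gmds, the step before it, was 2.25-fold higher in DC (adjusted p 5.01e-09), and its Si8 change of 0.11 was not called (adjusted p 0.33). Slc35c2, a relative of the GDP-fucose carrier of the Golgi, was 2.41-fold higher in DC (adjusted p 8.16e-08) and at −0.23 in Si8 (adjusted p 0.1). The goblet effect was larger in DC for Gmds (difference 1.06, adjusted p 6.91e-06) and for Slc35c2 (difference 1.497, adjusted p 1.99e-06). The UDP-sugar list was higher for 5 of 5 genes in DC (median 0.99) and for 4 of 5 in Si8 (median 0.67). Gne, which opens sialic acid synthesis, rose by 1.05 in DC and 1.40 in Si8. Slc35a2, the UDP-galactose carrier, rose by 0.99 in DC and 1.23 in Si8.

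Among the other fucosyltransferases 2 of 5 tested were higher and 1 lower in DC, and 3 of 5 were higher in Si8, where 27.8% and 33.1% of all genes were called higher and 27.9% lower in DC. The genes higher in DC include Sec1, which passed the filter on low counts only through DC.GC. Pofut2, which puts fucose on thrombospondin repeats, rose by 1.10 in DC and 0.80 in Si8 (adjusted p 2.3e-10 and 1.14e-08 in edgeR). Neither fucosidase, Fuca1 or Fuca2, was called in DC, and 1 of the 2 was lower in Si8. Fut9, which makes Lewis x like FUT4 and was singled out after its values were seen, was at 73.1 ± 13.8 CPM in DC.EC and 54.9 ± 1.17 in DC.GC, but had 4 and 3 counts in all of Si8.EC and Si8.GC. Its DC change of −0.41 (adjusted p 0.0107) had the opposite sign to that of Fut4.

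The enzymes that build the chains under the fucose were mixed, with 3 of 6 higher and 1 lower in DC (median 0.41) and none higher and 2 lower in Si8 (median −0.30). B3galt2, a galactosyltransferase, had 5597 counts in DC.GC, 301 in DC.EC and 4 in each Si8 group, and its DC change of 4.13 was 17.5-fold (adjusted p 2.52e-13 in edgeR). B4galt1, the main galactosyltransferase of N-glycans, was lower in both goblet sorts, with a log2 change of −2.34 in DC and −1.09 in Si8 (adjusted p 7.3e-14 and 2.21e-09). B4galt4 was higher in the DC goblet sort (1.39, adjusted p 2.74e-10) and lower in that of Si8 (−0.48, adjusted p 0.000173), and the difference of 1.88 passed the test (adjusted p 2.77e-09). Of 7 other terminal transferases none was higher and 4 were lower in DC (median −0.22), and 1 was higher and 4 lower in Si8 (median −0.49). Ggta1, which makes the alpha-Gal epitope, fell by 2.39 in DC and by 4.27 in Si8 on the log2 scale, on only 21 and 4 counts in DC and 309 and 17 in Si8. B4galnt3, which makes LacdiNAc, fell by 1.37 and by 2.71 (adjusted p 2.81e-07 and 5.34e-11). It was thus lower in both goblet sorts, where B4galnt2 was lower only in that of DC by the test.

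Of 10 factors and receptors tied to intestinal fucosylation, 2 were higher and 6 lower in the goblet sort of each region (medians −0.53 and −0.43), against 27.8% higher and 27.9% lower of all genes in DC and 33.1% and 31.8% in Si8. The 2 that rose in both were Atoh1 and Spdef, the secretory lineage factors, by 7.38 and 6.78 in DC and by 5.79 and 5.94 in Si8, and both are also goblet markers. Il22ra1, the receptor chain for interleukin-22, fell by 1.95 in DC and by 0.89 in Si8 (adjusted p 7.38e-08 and 0.00022 in edgeR). Hnf4a, an epithelial nuclear receptor, fell by 1.47 and by 0.69. Il22ra1 stood at 73.6 ± 7.13 CPM in DC.EC, 19.1 ± 2.15 in DC.GC, 166 ± 39.4 in Si8.EC and 89.95 ± 22.1 in Si8.GC.

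**Figure D5:**
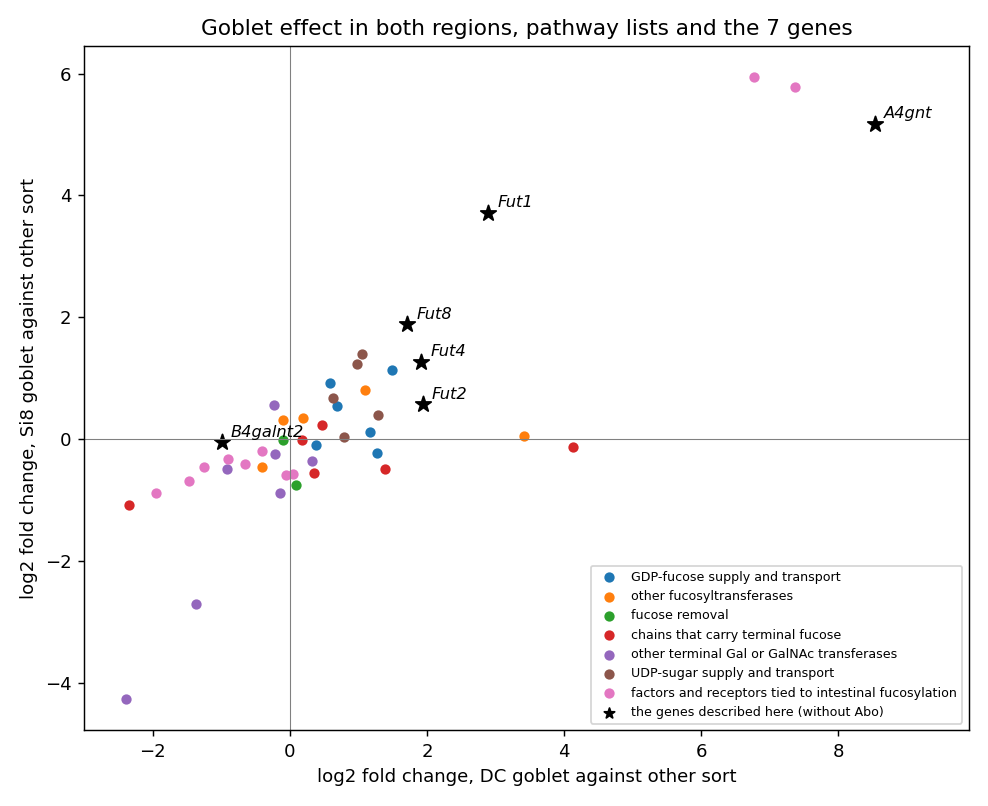
Log2 fold change of the goblet sort against the other sort in DC (horizontal) and Si8 (vertical), 1 dot for each of the 41 tested list genes, coloured by list, and a star for each enzyme but Abo. All GDP-fucose and UDP-sugar genes lie right of 0, A4gnt lies near Atoh1 and Spdef at the upper right, and B4galnt3 and Ggta1 are the lowest dots.

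The genes whose levels were most like each enzyme were ranked by Pearson's r of log2(CPM + 0.5) over the 16 libraries, as a description only, since the libraries fall into 4 groups and share depth by region. For Fut1 they were Kcnh2, Selm and Tmem120b (r of 0.989, 0.988 and 0.988), and for Fut4 Tvp23b, Yipf1 and Aldh3b2 (all 0.992). For Fut8 they were Smim14, Atp2c2 and Sil1 (all 0.993), and for A4gnt Hpd, Atoh1 and Ccl6 (0.995, 0.993 and 0.993). The gene most like Abo was B3galt2 (0.994), followed by Oit1 and Scnn1b (0.992 and 0.989). B4galnt2 was most like Psme2, Psmb10 and Oas3 (0.991, 0.990 and 0.989). For Fut2 they included Tecpr2 and Selo (0.933 and 0.925). Ranked by Spearman's rho instead, 1 of the 3 genes stayed for Fut1 and 1 for A4gnt, and none for the other 5 enzymes.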

How the data were processed

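Raw read counts per gene were deposited by the authors as a table for each region. Per the submitters' processing notes, the build was mm10 and the tools were STAR 2.4.0f, HTSeq 0.6.1p1, FastQC 0.11.2 and DESeq2 1.14. Not given in the sources used here: the strand setting, and how reads matching several genes were handled. Libraries came from the TruSeq Stranded Total RNA kit with Ribo Zero Gold, read paired-end, per the labels' protocols. A deposited normalized table was not used. Of 46882 genes, 4 entries with a repeated symbol were left out.

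The test was the robust quasi-likelihood F test of edgeR 4.0.16 (R 4.3.3), with filterByExpr by group and then TMM factors, in 1 fit over 16 libraries in 4 groups with no covariate. The 16001 genes passing the filter were adjusted together by Benjamini-Hochberg, and a gene was called at an adjusted p under 0.05. Standard errors divide the size of the log2 fold change by the root of its F value. CPM uses TMM-scaled totals, with no prior count. The fit was tested on simulated data. Alternatives were RLE factors, plain totals, no filter, removal of mitochondrially encoded genes, only the libraries of a contrast, DESeq2 1.42.0 and leaving out each library. Lengths, coordinates and coding sequences come from GENCODE M21 (GRCm38, which is mm10) and promoters from RefSeq GRCm38.p6; coding sequences were aligned with Biopython 1.88.

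Named were all 7 enzymes, Sec1, and of each list up to 4 genes called in a goblet contrast and changed by 1 or more on the log2 scale, by largest change. Like genes were the 3 with the highest r among genes reaching a group mean of 5 CPM. Of the genes these rules select, 2 are not reported here. The enzymes and lists were chosen with earlier results of these data known.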

Additional observations from a re-analysis of the deposited data

Results flagged for a closer look

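In Si8.EC, library S3 had 405 CPM of B4galnt2, apart from the other 3 libraries, which lay between 498 and 506 CPM. Chance alone sets about 1 in 20 groups apart in this way.

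The goblet change differed between the regions, by an edgeR test of the difference itself (DC minus Si8, log2), for 4 enzymes. Of all genes, 15.6% were called higher and 16.5% lower in that test. For A4gnt the difference was 3.36, with 371-fold in DC and 36.2-fold in Si8. For Fut2 it was 1.37, with 3.84-fold in DC and 1.49-fold, not called, in Si8. This Fut2 call was lost in 11 of the 16 fits with 1 library left out and in 2 of 5 other settings. For Fut4 it was 0.65, with 3.78-fold and 2.41-fold. For B4galnt2 it was −0.94, lower in the DC goblet sort and not called in Si8. Paneth and deep crypt secretory markers were higher in the goblet sort of both regions, the former mostly in Si8 (13169.7 to 35764 CPM in Si8.GC, 21.8 to 25.2 in DC.GC) and the latter mostly in DC (1395 to 2079 CPM in DC.GC, 141 to 229 in Si8.GC). Their part in these differences was not tested.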

How the results depend on the processing

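Over the alternatives, the number of enzymes called stayed at 7 of 7 in the DC goblet comparison and at 4 to 5 of 6 in that of Si8. It stayed at 6 to 7 of 7 between goblet sorts and also between other sorts. For the difference of goblet effects it stayed at 3 to 4 of 6. Abo was left out where the count is of 6, and an enzyme with no value counts as not called. Of all 16001 genes in the main fit, 8911, 10383, 9943, 10711 and 5133 were called in these comparisons, in that order. Of 528 values with 1 library left out, 513 kept their direction and side of the threshold, 11 lost the call, 3 gained one and 1 reversed. The 11 all belong to the Fut2 difference between regions (1.09 to 1.62 over the 16 omissions), which was also lost with plain totals (1.43, adjusted p 0.0541) and with no filter (1.34, adjusted p 0.111). The reversed value is the Si8 goblet change of B4galnt2, not called in any of them, which was 0.013 without S4 and ran from −0.12 to 0.013. The 3 gains were Fut2 in the Si8 goblet sort (0.86) and between other sorts (0.59), both without S8, and the Fut1 difference (−1.27) without S5. The Fut1 difference between goblet sorts was called with plain totals (0.70, adjusted p 0.00859) and with only the libraries of the contrast (0.37, adjusted p 0.0497). Plain totals moved the median of all genes to 0.32 between goblet sorts and to 0.27 between other sorts. With only the libraries of that contrast, Fut2 between other sorts was called as well (0.60, adjusted p 0.0272), and A4gnt between other sorts did not pass the filter and gave no value. The cause of these changes was not tested. No paired analysis was run, because the groups share no replicate numbers and the labels name no pairs. Whether libraries with adjacent numbers belong together is not given, and a paired fit was not tested. Depth limits Abo in Si8, Fut1 in both other sorts, and A4gnt in DC.EC.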

Other observations

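Within Si8 the libraries lowest in Fut2 were also lowest for several other genes, and those highest in Fut2 were highest for some of them, all chosen after their values were seen and given with no test. Of the enzymes, Fut4 (29.6 and 79.9 CPM) and, narrowly, Fut8 (50.9 and 211 CPM) were also lowest in S7 and S8 of their groups. Fut1 and A4gnt were lowest in S7 but not in S8, and B4galnt2 in neither. Gmds and Cdx2 were lowest in S7 and S8 too. B3galt5, a galactosyltransferase of the chains that carry fucose, was at 33.5, 68.8, 55.4 and 12.99 CPM in S1, S3, S5 and S7 of Si8.EC, and at 26.3, 42.1, 38.0 and 9.29 CPM in S2, S4, S6 and S8 of Si8.GC. As with Fut2, S3 and S4 were highest and S7 and S8 lowest in their groups. In DC B3galt5 was far higher, at 727 ± 51.4 CPM in DC.EC and 929 ± 40.3 in DC.GC.

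The antimicrobial lectin Reg3b was at 17801, 19355, 17287 and 12783 CPM in S1, S3, S5 and S7, and at 7948, 9457, 8122 and 4289 CPM in S2, S4, S6 and S8. Reg3g followed, with 6386 CPM in S7 and 3157 CPM in S8 as the lowest values and 11783 and 7882 CPM in S3 and S4 as the highest. The acute phase gene Saa1 was lowest in S7 (254 CPM) and S8 (40.0 CPM), but highest in S5 (536 CPM) and S6 (145 CPM). Socs3 was lowest in S7 (81.9 CPM) and S8 (61.2 CPM) and highest in S5 (125 CPM) and S4 (88.1 CPM). Il22ra1 went the other way for S3 and S4, its lowest libraries, at 119 and 67.8 CPM. The labels do not say whether S7 and S8, or S3 and S4, came from the same animal.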
